A study of Mus musculus with 24 samples.

Results

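Glutathione S-transferases couple the tripeptide glutathione to electrophilic molecules, and the set described here holds Gstp1, Gstm1, Gstm5, Gsta4, Gsto1, Gstt1, Mgst1 and Mgst3. The members were all probe sets annotated with only one of these 8 symbols, which gave 14 probe sets among the 45037 of the deposited table. No member lacked a probe set. Expression was measured on 24 Affymetrix arrays of bone marrow-derived macrophages from male mice. All mice, the controls included, carried the Il10tm1Cgn allele and so lacked Il10, an anti-inflammatory cytokine whose loss leads to colitis in mice. CB-R1 (C3Bir.Cg-Il10tm1Cgn Cdcs1) had the C3Bir genome with a long chromosome 3 segment of B6 that includes the colitis locus Cdcs1. C3Bir (C3H/HeJBir-Il10tm1Cgn) was the colitis-susceptible parent. BC-R3 (B6.Cg-Il10tm1Cgn Cdcs1) had the B6 genome with the Cdcs1 region of C3Bir. B6 (C57BL/6J-Il10tm1Cgn) was the colitis-resistant parent. Cells were cultured for 6 days, and each strain had 3 arrays with 4 h of flagellin at 1 µg/mL, a bacterial protein sensed by innate immune receptors, and 3 arrays left unstimulated. The labels give 3 mice per genotype and 3 pooled wells per RNA sample but no ages. They do not tie an array number to a mouse. Flagellin and unstimulated arrays of a strain may therefore come from the same mice. The tests treat all arrays as independent and gauge array-to-array spread, part of which may be technical. Contrasts and spreads over both conditions may then count a mouse more than once.

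The cytosolic transferases fall into classes named by Greek letters, and the members cover alpha (Gsta4), mu (Gstm1, Gstm5), omega (Gsto1), pi (Gstp1) and theta (Gstt1). Mgst1 and Mgst3 belong to the microsomal, membrane-bound family, which also contains enzymes of leukotriene and prostaglandin synthesis. In macrophages these enzymes remove products of lipid peroxidation and reactive compounds made during inflammation, and the conjugates leave the cell through multidrug resistance transporters. Many transferase genes are targets of NRF2, a transcription factor that binds antioxidant response elements, and of AP-1 factors.

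The promoters are shown because the strain differences below turn on the levels of Gstp1, Gsto1 and Gstm5. Gstp1 also has a near-identical neighbour, Gstp2, whose transcript its probes may also read. The windows come from 1 reference build, so they show no sequence differences between the strains. RefSeq windows of GRCm38.p6 from 250 bases before to 50 bases after a gene start were found for 7 of the 8 members, not for Gsta4. Searched on both strands were TGACNNNGC, the core of the antioxidant response element, and TGANTCA, the AP-1 site. The first was present in 12.4% and the second in 7.81% of all 32851 windows of 300 bases. Capitals mark matches. The Gstp1 and Gstp2 windows both hold TGAGTCA, 74 and 89 bases before the start, and 243 of their 282 aligned bases were identical (86.2%). Gstm5 has TGACTCA 176 bases and TGACCACGC 42 bases before its start. In 1 of the windows of Mgst1, chr6:138140277-138140576, the core lies on the opposite strand as GCACGGTCA, 56 bases before the start. No match was found in the windows of Gsto1, Gstm1, Gstt1 and Mgst3. The AP-1 matches of Gstp1 and Gstp2 are followed by gc. They differ from the searched antioxidant response element core only in having G for C. Forms of the core with G there were not searched. The sequences, each read 5′ to 3′ along the gene's own strand, are:
Gstp1 (chr19:4037863-4038162, minus strand): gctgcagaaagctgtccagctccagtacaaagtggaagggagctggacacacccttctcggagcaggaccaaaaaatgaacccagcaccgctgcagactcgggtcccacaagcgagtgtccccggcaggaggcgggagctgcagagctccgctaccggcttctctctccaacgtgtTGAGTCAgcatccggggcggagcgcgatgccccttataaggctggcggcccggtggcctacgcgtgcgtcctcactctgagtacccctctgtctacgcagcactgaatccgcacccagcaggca
Gstp2 (chr19:4042172-4042471, minus strand): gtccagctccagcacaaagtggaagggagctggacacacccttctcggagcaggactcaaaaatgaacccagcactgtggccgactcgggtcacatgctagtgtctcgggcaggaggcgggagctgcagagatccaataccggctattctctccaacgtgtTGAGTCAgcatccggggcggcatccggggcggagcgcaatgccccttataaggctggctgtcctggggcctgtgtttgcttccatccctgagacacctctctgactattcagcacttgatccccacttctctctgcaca
Gstm5 (chr3:107895604-107895903, plus strand): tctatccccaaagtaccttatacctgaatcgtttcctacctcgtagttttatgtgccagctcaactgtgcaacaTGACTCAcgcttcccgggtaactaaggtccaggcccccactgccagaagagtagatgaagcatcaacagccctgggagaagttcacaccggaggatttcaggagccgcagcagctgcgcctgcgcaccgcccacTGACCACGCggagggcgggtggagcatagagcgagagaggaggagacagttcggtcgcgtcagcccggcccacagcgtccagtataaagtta
Gsto1 (chr19:47854723-47855022, plus strand): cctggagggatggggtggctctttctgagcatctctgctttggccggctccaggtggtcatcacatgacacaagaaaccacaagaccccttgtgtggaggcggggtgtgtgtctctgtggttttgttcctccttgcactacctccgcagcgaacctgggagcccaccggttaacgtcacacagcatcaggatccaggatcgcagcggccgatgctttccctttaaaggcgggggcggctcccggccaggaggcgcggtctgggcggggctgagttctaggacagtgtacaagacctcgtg

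Values are log2 signals as deposited, so a difference of 1 is a doubling of signal. Array medians lay between 6.55 and 6.64, and arrays of a group correlated at 0.987 to 0.998. With 3 arrays a group, the number of arrays limits the precision. Some arrays stood apart. Averaged over the cytokine genes Tnf, Il1b and Il6, the log2 signal of unstimulated arrays 2 and 3 reached 9.65 and 9.33 in C3Bir and 12.48 and 12.58 in B6, and the remaining 20 arrays had 6.72 to 8.70. Those 4 are called the high arrays below. A member's call that was lost without the high arrays is named as such. Counts and values of genes other than the members are given with the high arrays only. Leaving out the high arrays keeps 1 unstimulated array in B6 and 1 in C3Bir. A call lost in that fit may reflect fewer arrays, and whether it rests on the high arrays cannot be told. On the flagellin arrays the cytokine mean was 7.20 to 8.43. In B6 these arrays (8.43, 7.82 and 7.65) lay below all unstimulated arrays (8.70 and the high arrays). In CB-R1 they (7.23, 7.20 and 7.40) lay above all unstimulated arrays (6.72, 6.74 and 7.13). In C3Bir and BC-R3 they lay inside the unstimulated range. Macrophage markers were strong everywhere, with a mean over 11 genes of 12.07 to 12.57 on the arrays. The mean of 10 neutrophil markers was 11.46 to 11.73 in CB-R1 and 9.96 to 11.39 in the other strains. The mean of 12 stromal cell markers was 8.12 to 8.66 in CB-R1, 7.04 to 7.70 in C3Bir, 7.20 to 8.31 in BC-R3 and 7.04 to 9.01 in B6. In such mixed RNA, fewer cells of a type and less RNA per cell cannot be told apart.

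Gstp1, the pi-class enzyme and an abundant detoxifying transferase in many tissues, was the member called by the origin of the Cdcs1 segment. Its probe set 1449575_a_at was lowest in C3Bir, intermediate in BC-R3 and highest in CB-R1 and B6. The gene is on chromosome 19, whereas Cdcs1 is on chromosome 3.

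In CB-R1, Gstp1 gave log2 values of 10.42, 10.35 and 10.42 with flagellin and 10.41, 10.32 and 10.24 unstimulated. In C3Bir it gave 9.91, 10.06 and 9.69 with flagellin and 9.79, 9.88 and 9.79 unstimulated. All 6 C3Bir arrays lay below all 6 CB-R1 arrays, although the strains share their background. In BC-R3 the values were 10.10, 10.26 and 10.24 with flagellin and 10.16, 9.97 and 10.03 unstimulated. In B6 they were 10.31, 10.59 and 10.36 with flagellin and 10.23, 10.30 and 10.31 unstimulated. Of the BC-R3 arrays 2 exceeded the lowest B6 array, and all C3Bir arrays lay below all B6 arrays.

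**Figure D1:**
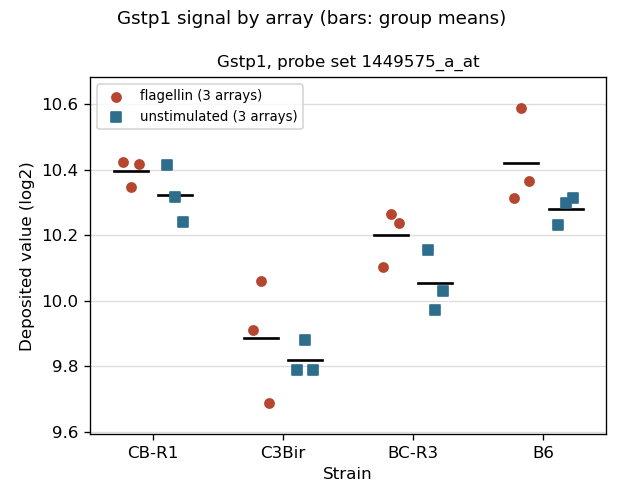
Deposited log2 signal of Gstp1 (y axis) on each of the 24 arrays, by strain (x axis), with flagellin arrays as circles, unstimulated arrays as squares and group means as bars. C3Bir arrays lie between 9.69 and 10.06, below the 10.24 to 10.42 of CB-R1 and the 10.23 to 10.59 of B6, with BC-R3 between them at 9.97 to 10.26.

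The design crossed the origin of the chromosome 3 segment that holds Cdcs1 with the background. The allele contrast, which covers all of the segments and not Cdcs1 alone, set C3Bir and BC-R3, which carry the C3Bir segment, against CB-R1 and B6, which carry that of B6. The ends of the segments are not given in the labels, and the segment of CB-R1 is described as long. Over both conditions Gstp1 was lower with the C3Bir allele, by a log2 difference of -0.37 ± 0.04 (SE), which is 1.29-fold lower (limma, Benjamini-Hochberg adjusted p = 1.09e-04). It was the only 1 of the 14 member probe sets called at an adjusted p under 0.05 in this contrast, where 1.32% of all 45033 probe sets with values were called. The call held in all 24 fits that left out 1 array and in the 8 alternative fits of single probe sets, with a highest adjusted p of 0.0164. The median difference of the 14 probe sets was -0.0026, beside -0.0030 over all probe sets.

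Each congenic was also set against its background strain. Over both conditions, a contrast added after the values had been seen, CB-R1 exceeded C3Bir in Gstp1 by 0.51 ± 0.06 (1.42-fold, limma adjusted p = 1.49e-04), where 2.47% of probe sets were called. Within each condition the difference was 0.51, with adjusted p = 0.0116 unstimulated (0.586% called) and 0.0230 with flagellin (0.0555% called). In the fit of the compared arrays alone these became 0.116 and 0.108, at a log2 difference of 0.51. Without the high arrays, which leaves 1 unstimulated C3Bir array, both calls were lost. The difference was then 0.53 unstimulated and 0.51 with flagellin. Leaving out C3Bir unstimulated array 3 or CB-R1 unstimulated array 1 or 2 also ended the first call (differences 0.49, 0.46 and 0.51, adjusted p = 0.106, 0.0885 and 0.0738). Leaving out C3Bir flagellin array 3 or any CB-R1 flagellin array ended the second call (differences 0.41 to 0.53, adjusted p 0.0764 to 0.216). The size of the difference thus moved little while the adjusted p crossed the threshold.

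On the B6 background the Gstp1 difference was smaller. BC-R3 minus B6 was -0.23 ± 0.09 unstimulated (adjusted p = 0.0553) and -0.22 ± 0.09 with flagellin (adjusted p = 1.0), not called in either. Over both conditions it was -0.22 ± 0.06 (adjusted p = 0.0391), in a contrast added later with 5.42% of probe sets called, but only 4 of 12 fits without 1 array kept the call and without the high arrays the difference was -0.20 (adjusted p = 0.553). The allele difference on the C3Bir background minus that on the B6 background was -0.28 ± 0.09 (adjusted p = 0.0477, 7.99% of probe sets called), and 4 of 24 fits without 1 array kept that call. Without the high arrays it was -0.32 (adjusted p = 0.467). Between the strains with unlike backgrounds and the same allele, C3Bir was below BC-R3 by a log2 difference of -0.27 ± 0.06 (adjusted p = 0.00445, 10.8% called), called in all 12 such fits. CB-R1 minus B6 was 0.01 ± 0.06, with a 95% interval of -0.12 to 0.14 (adjusted p = 0.946, 23.6% called).

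Between the parental strains, Gstp1 was lower in C3Bir than in B6 by a log2 difference of -0.54 ± 0.09 with flagellin (1.45-fold, adjusted p = 4.16e-04) and of -0.46 ± 0.09 unstimulated (1.38-fold, adjusted p = 0.00120). Of the 14 member probe sets, 2 were called with flagellin, where 5.68% of all probe sets were, and 1 unstimulated, where 13.4% were. The flagellin call was lost in the fit of the compared arrays alone (adjusted p = 0.0711) and the unstimulated call without the high arrays (-0.44, adjusted p = 0.276). Stromal markers moved in the same direction as Gstp1 in the allele contrast, with a median log2 difference of -0.79, beside -0.01 over all genes. Of 12 stromal markers 1 was called lower, where 1.3% of all genes were called. Of 10 neutrophil markers 0 were called by allele, with a median of -0.30, also in the direction of Gstp1. In CB-R1 minus C3Bir over both conditions 2 stromal and 1 neutrophil marker were called higher, with list medians of 1.08 and 0.78. Of all probe sets 2.47% were called there. The part of these cells in the Gstp1 differences was not tested. Whether a strain's sequence variants under the probes or signal from Gstp2 contributed was not tested.

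The 2 contrasts over all 24 arrays, for allele and for background, are set side by side in the plot of strain differences. The background contrast sets C3Bir and CB-R1 against B6 and BC-R3. In it 4 member probe sets were called, 1 higher and 3 lower, where 22.4% of all probe sets were called, so the members' count is read against that share. Gstp1 was among them at -0.13 ± 0.04 (adjusted p = 0.0295), a call that ended in 7 of 24 fits without 1 array (adjusted p up to 0.0578), with quantile normalization (0.154), without the high arrays (0.149) and without unstimulated array 1 of C3Bir, BC-R3 and B6 (0.0773). All 10 measured neutrophil markers were called higher in this contrast, by a median log2 difference of 0.88, and their part in the member differences was not tested.

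**Figure D2:**
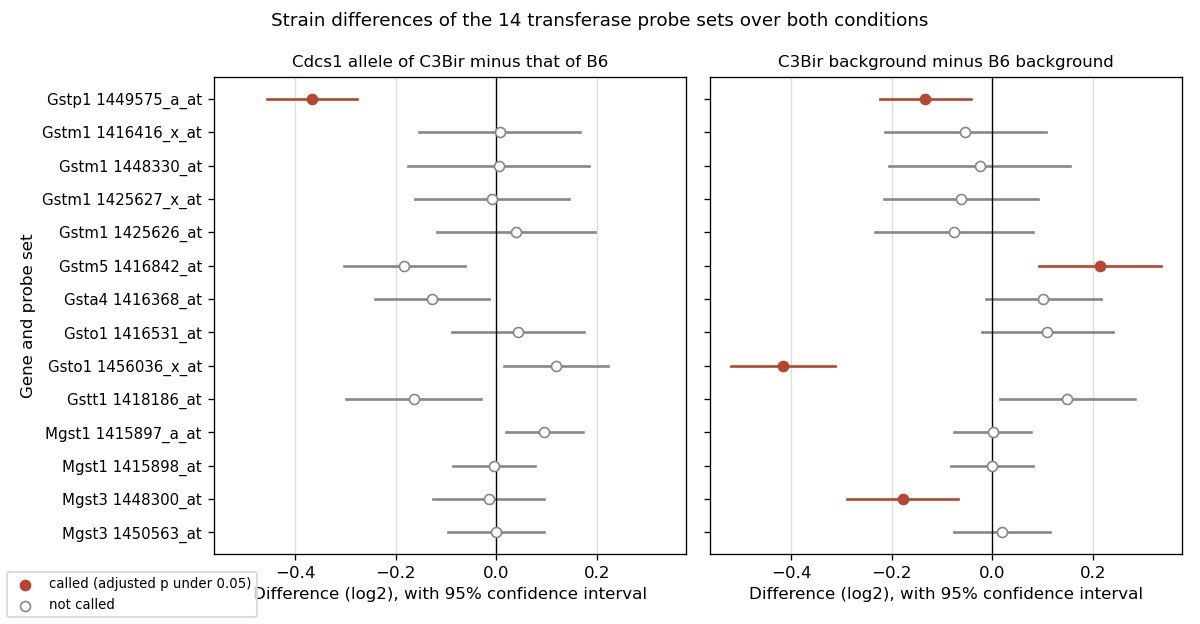
Log2 differences (x axis, points with 95% confidence intervals) of the 14 member probe sets (y axis) for the C3Bir minus the B6 allele of Cdcs1 (left) and the C3Bir minus the B6 background (right), with filled points where the adjusted p was under 0.05. Gstp1 at -0.37 is the only filled point on the left, and Gsto1 1456036_x_at at -0.42 lies farthest from 0 on the right.

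Gsto1, the omega-class enzyme that reduces glutathione mixed disulphides and has been linked to inflammasome activation in macrophages, differed by background in 1 of its probe sets but not in the other. Probe set 1456036_x_at was lower on the C3Bir background by a log2 difference of -0.42 ± 0.05 (1.34-fold, adjusted p = 1.97e-06). The call held in all 24 fits without 1 array and in the 8 alternatives. Probe set 1416531_at had 0.11 ± 0.06 in the same contrast (adjusted p = 0.246), of opposite sign. The gene's own background difference is therefore unsettled between its probes.

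With 1456036_x_at, CB-R1 gave 10.54, 10.49 and 10.51 with flagellin and 10.69, 10.69 and 10.50 unstimulated. C3Bir gave 10.47, 10.63 and 10.65 with flagellin and 10.48, 10.53 and 10.51 unstimulated. Both strains of the C3Bir background thus lay at or below 10.69. BC-R3 gave 11.05, 11.03 and 10.79 with flagellin and 10.98, 11.30 and 11.49 unstimulated, above all arrays of those strains. B6 gave 10.92, 11.04 and 10.93 with flagellin and 10.64, 10.81 and 10.71 unstimulated, with 1 array inside their range. With 1416531_at the strains overlapped widely, at 10.98 to 11.30 in CB-R1, 10.94 to 11.27 in C3Bir, 10.75 to 11.29 in BC-R3 and 10.75 to 11.10 in B6.

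**Figure D3:**
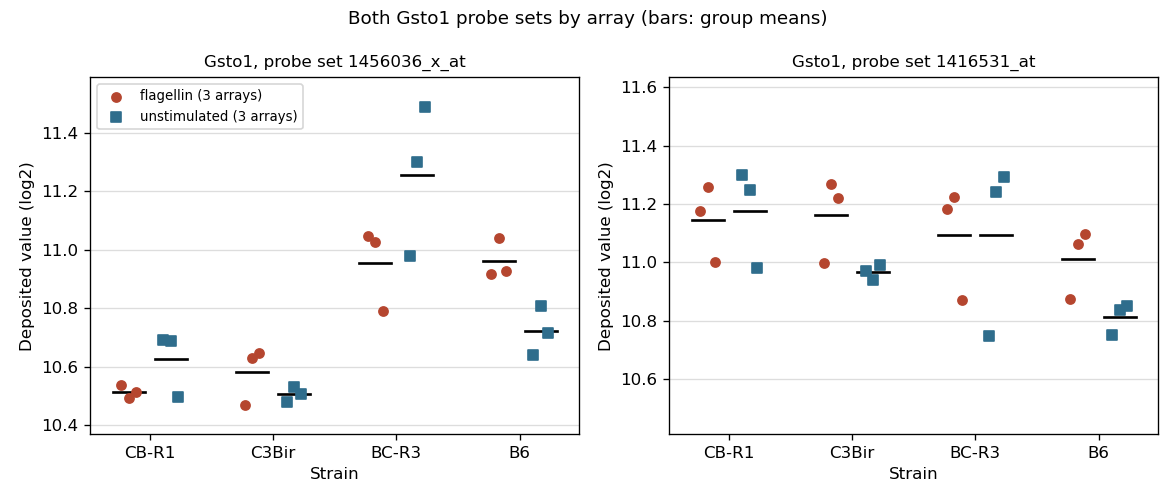
Deposited log2 signal (y axis) of the Gsto1 probe sets 1456036_x_at (left) and 1416531_at (right) on each array by strain (x axis), with flagellin arrays as circles, unstimulated arrays as squares and group means as bars. The left set separates the C3Bir-background strains, at most 10.69, from BC-R3, at least 10.79, and the right set does not.

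In pairwise contrasts, 1456036_x_at was lower in C3Bir than in BC-R3 (-0.56 ± 0.07, adjusted p = 8.65e-06) and lower in CB-R1 than in B6 (-0.27 ± 0.07, adjusted p = 0.00668, and 0.125 without the high arrays). C3Bir minus B6 with flagellin was -0.38 ± 0.10 (adjusted p = 0.0249), a call that ended without B6 flagellin array 2 (-0.34, adjusted p = 0.0746), without C3Bir flagellin array 1 (-0.32, 0.108) or 2 (-0.40, 0.0537) and in the fit of the compared arrays (0.0752). BC-R3 minus B6 unstimulated was 0.54 ± 0.10 (1.45-fold, adjusted p = 0.00137), but 0.62 with an adjusted p of 0.258 without the high arrays. In that contrast 3 member probe sets were called, beside 26.5% of all probe sets, which is no higher a share. Over both conditions BC-R3 minus B6 in 1456036_x_at was 0.26 ± 0.07 (adjusted p = 0.0365), kept in 4 of 12 fits without 1 array, and without the high arrays it was 0.31 (adjusted p = 0.521). CB-R1 minus B6 was 0.25 ± 0.09 in the other probe set, 1416531_at, and that call (adjusted p = 0.0479) was kept in 3 of 12 fits without 1 array. The difference was 0.23 after centring each array on its median (adjusted p = 0.0736), 0.25 with array pairs as a random block (0.0620) and 0.28 without the high arrays (0.156). Within groups the deviations of both probe sets ran together over the 24 arrays (r = 0.87), although their background differences had opposite signs. Whether sequence differences between strains under the probes of 1456036_x_at lower its signal was not tested.

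The mu-class genes Gstm1 and Gstm5 lie in the Gstm cluster on chromosome 3, the chromosome of the congenic segments, and conjugate a broad range of aromatic and epoxide substrates. Gstm1 showed no called strain difference in any of its 4 probe sets. In probe set 1416416_x_at its strain means were 11.31 ± 0.14 in CB-R1, 11.49 ± 0.20 in C3Bir, 11.37 ± 0.11 in BC-R3 and 11.54 ± 0.26 in B6 (SD, n = 6 arrays each). The allele differences of the 4 probe sets were -0.01 to 0.04, with adjusted p of 0.857 to 0.987, and their background differences were -0.08 to -0.03. The 95% interval of the allele difference in 1416416_x_at was -0.15 to 0.17.

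Gstm5, a mu-class gene best known from brain and testis, was higher on the C3Bir background by 0.21 ± 0.06 (1.16-fold, adjusted p = 0.00966). CB-R1 gave 8.73, 8.91 and 8.94 with flagellin and 9.04, 9.01 and 8.80 unstimulated. C3Bir gave 8.55, 8.73 and 8.68 with flagellin and 8.61, 8.69 and 8.61 unstimulated. BC-R3 gave 8.56, 8.53 and 8.36 with flagellin and 8.33, 8.55 and 8.71 unstimulated. All CB-R1 arrays but 1 lay above all C3Bir and BC-R3 arrays. B6 gave 8.40, 8.89 and 8.64 with flagellin and 8.39, 8.73 and 8.63 unstimulated, which overlapped with every other strain. The background call held in all 24 fits without 1 array and in 8 of 8 alternatives. CB-R1 exceeded B6 by 0.29 ± 0.08 (adjusted p = 0.0121), also in all 12 such fits, whereas CB-R1 minus C3Bir was 0.26 ± 0.08 (adjusted p = 0.0934) and the allele difference -0.18 ± 0.06 (adjusted p = 0.110), neither called. C3Bir minus BC-R3 was 0.14 ± 0.08 (adjusted p = 0.339), and C3Bir minus B6 was 0.01 ± 0.12 with flagellin and 0.05 ± 0.12 unstimulated, so the background difference came mainly from CB-R1. All 10 neutrophil markers were called higher in CB-R1 than in B6, with a median log2 difference of 1.43, as they were by background. Of 12 stromal markers 2 were called higher and 1 lower in each of these contrasts, with medians of 0.27 for CB-R1 minus B6 and -0.02 by background. Of all probe sets 23.6% were called in CB-R1 minus B6 and 22.4% by background, so the stromal counts are read against those shares. The 3 genes most alike to Gstm5 over the 24 arrays were Fkbp14 (r = 0.89), 2810025M15Rik (0.86) and Sh3pxd2a (0.86). The part of neutrophils or stromal cells in the Gstm5 signal was not tested.

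**Figure D4:**
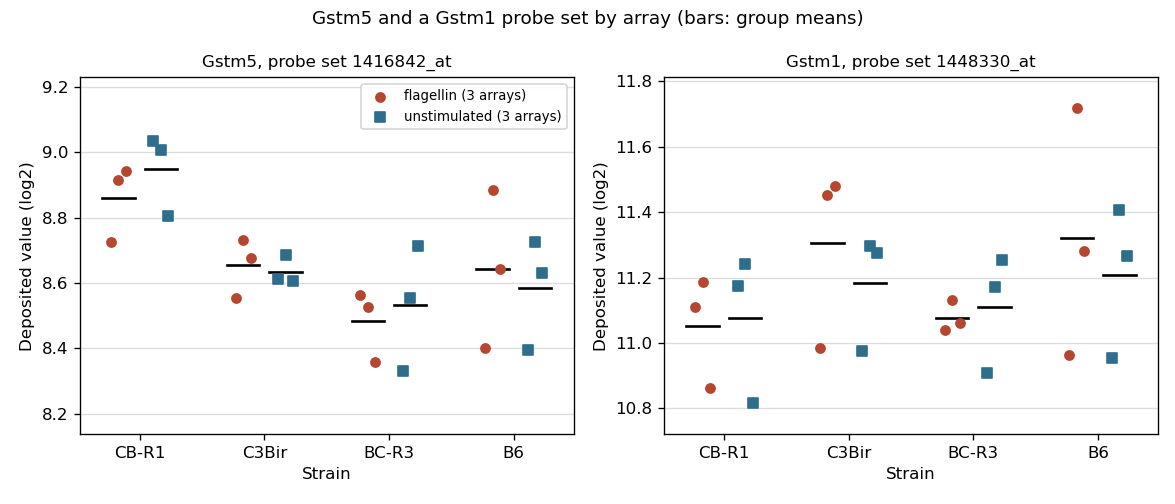
Deposited log2 signal (y axis) of Gstm5 (left) and of the Gstm1 probe set 1448330_at (right) on each array by strain (x axis), with flagellin arrays as circles, unstimulated arrays as squares and group means as bars. Gstm5 is at 8.73 to 9.04 in CB-R1, and the Gstm1 arrays of the strains overlap.

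By their highest-mean probe sets, 0 of the 7 Gstm genes and 0 of the 18 measured genes among the cluster's 20 neighbours, 10 on each side, were called by limma in the allele contrast. Of all 18193 genes only 1.3% were called there, so a count of 0 in sets of this size sets the cluster apart from nothing. Mu-class genes are similar in sequence, and probes may read more than one of them. Whether the cluster lies inside the congenic segments was not tested. The 4 Gstm1 probe sets correlated with each other at 0.79 to 0.98 over the 24 arrays. Array 1 was the lowest of its group in 5 or 6 of the 8 groups in each of these 4 probe sets and in 5 of 8 for Gstm5.

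Mgst1, the microsomal enzyme that protects membranes from lipid peroxides, was the only member called for flagellin in any strain, in B6, and the call ended when single B6 arrays of either condition were left out. With probe set 1415897_a_at, BC-R3 gave 11.84, 11.74 and 11.92 with flagellin and 12.08, 12.17 and 12.25 unstimulated. B6 gave 12.01, 11.95 and 12.07 with flagellin and 11.88, 11.66 and 11.70 unstimulated. In B6 the flagellin arrays all lay above the unstimulated arrays, and in BC-R3 they all lay below. C3Bir gave 12.06, 11.95 and 12.04 with flagellin and 12.06, 11.82 and 11.92 unstimulated, which overlapped. CB-R1 gave 11.86, 11.78 and 11.87 with flagellin and 12.02, 11.92 and 11.98 unstimulated, with the flagellin arrays lower.

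In B6, 1415897_a_at rose with flagellin by 0.27 ± 0.07 (1.20-fold, adjusted p = 0.0199). Leaving out B6 unstimulated array 2 or 3 or B6 flagellin array 1 or 3 ended the call (differences 0.22 to 0.27, adjusted p 0.0520 to 0.106), as did the fit of the compared arrays alone (0.171), and without the high arrays the difference was 0.14 (adjusted p = 0.786). The change in BC-R3 was -0.33 ± 0.07 (adjusted p = 0.172) and in CB-R1 -0.14 ± 0.07 (adjusted p = 1.0, and also 1.0 with same-numbered arrays as pairs), and neither was called, although flagellin arrays were lower in all 3 pairs of CB-R1. The flagellin change in BC-R3 minus that in B6 was -0.60 ± 0.10 (adjusted p = 0.0135), called in all 12 fits without 1 array, where 8.05% of all probe sets and 3 of the 14 member probe sets were called. This call was lost with the compared arrays alone (adjusted p = 0.126). It was also lost without the high arrays, which leaves 1 unstimulated B6 array, at a difference of -0.47. Unstimulated BC-R3 exceeded unstimulated B6 by 0.42 ± 0.07 (1.34-fold, adjusted p = 0.00102), or by 0.29 without the high arrays (adjusted p = 0.304), and at an adjusted p of 0.0577 with the compared arrays alone. In the same contrast, which uses the high arrays of B6, 26.5% of all probe sets were called. The counts of cell type markers are read against that share. Called higher were 4 of 11 macrophage markers (median 0.19). Called lower were 3 of 12 stromal markers (median -0.93) and 3 of 11 mast cell and basophil markers (median -0.18). Mpeg1, a macrophage perforin-like gene, was among the macrophage markers called (0.28 ± 0.06, adjusted p = 0.00485). The part of these cells in the Mgst1 difference was not tested.

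The second Mgst1 probe set, 1415898_at, was dim and moved the other way. Its mean over 24 arrays was 5.46, close to the lower quartile of all signals on an array, 5.29 to 5.42. BC-R3 gave 5.44, 5.44 and 5.45 with flagellin and 5.33, 5.49 and 5.43 unstimulated. B6 gave 5.30, 5.25 and 5.37 with flagellin and 5.50, 5.73 and 5.75 unstimulated. The high values were those of the high arrays, B6 unstimulated 2 and 3. In B6 this probe set fell by 0.35 on the log2 scale with flagellin (adjusted p = 0.00708), a call lost without B6 unstimulated array 2 (adjusted p = 0.0505) or 3 (0.0546), with the compared arrays alone (0.141) and without the high arrays (0.756). Unstimulated BC-R3 minus B6 was -0.24 ± 0.08 (adjusted p = 0.0271), kept in 2 of 6 fits without 1 array and at 0.792 without the high arrays. The 2 Mgst1 probe sets thus gave opposite signs in B6, and the gene's response cannot be read from them together.

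**Figure D5:**
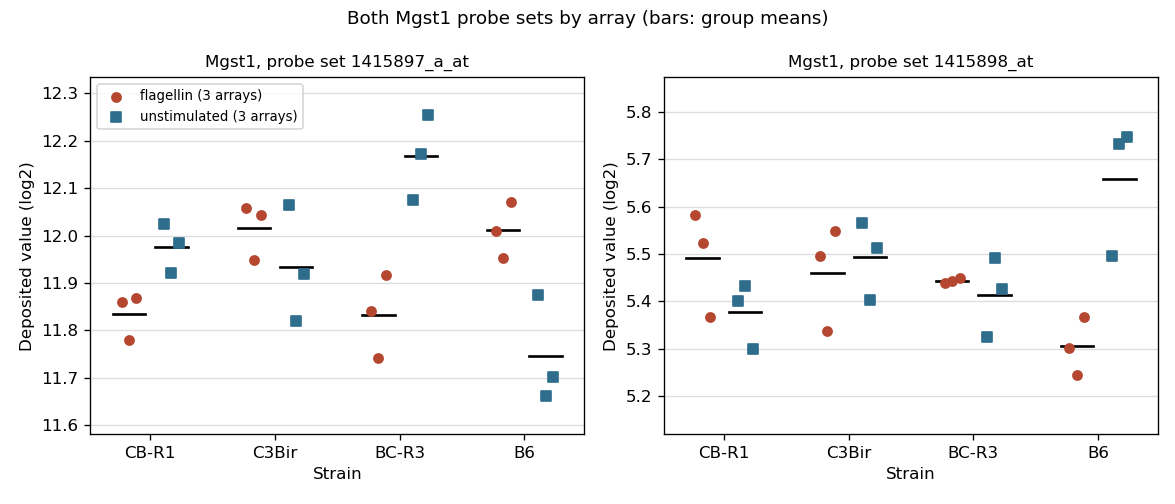
Deposited log2 signal (y axis) of the Mgst1 probe sets 1415897_a_at (left) and 1415898_at (right) on each array by strain (x axis), with flagellin arrays as circles, unstimulated arrays as squares and group means as bars. In B6 the flagellin arrays lie above the unstimulated arrays on the left and below them on the right.

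Mgst3, a microsomal enzyme with leukotriene C synthase and peroxidase activity, was lower on the C3Bir background in probe set 1448300_at by a log2 difference of -0.18 ± 0.05 (1.13-fold, adjusted p = 0.0184), called in all 24 fits without 1 array but not without the high arrays (-0.17, adjusted p = 0.112). It ranged from 9.15 to 9.62 in CB-R1 and from 9.27 to 9.38 in C3Bir, against 9.36 to 9.78 in BC-R3 and 9.38 to 9.61 in B6. All C3Bir arrays lay at or below the lowest B6 array, while CB-R1 spanned the whole range of B6. C3Bir minus BC-R3 was -0.26 ± 0.08 (adjusted p = 0.0279), kept in 4 of 12 fits without 1 array and at an adjusted p of 0.113 without the high arrays. The other probe set, 1450563_at, gave 5.77 to 6.27 over all arrays and a background difference of 0.02 ± 0.05 (adjusted p = 0.826).

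Gsta4, the alpha-class enzyme that conjugates hydroxynonenal from lipid peroxidation, and Gstt1, the theta-class enzyme that acts on small halogenated compounds, had no called difference. Gsta4 averaged 6.55 ± 0.09 in CB-R1, 6.46 ± 0.07 in C3Bir, 6.32 ± 0.10 in BC-R3 and 6.49 ± 0.20 in B6 (SD, n = 6 arrays each). Gstt1 averaged 6.60 ± 0.09 in CB-R1, 6.43 ± 0.21 in C3Bir, 6.29 ± 0.14 in BC-R3 and 6.44 ± 0.26 in B6. Their allele differences were -0.13 ± 0.05 (adjusted p = 0.245) and -0.16 ± 0.06 (adjusted p = 0.200), and these intervals do not include 0 before adjustment.

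With flagellin in B6, 2 of the 14 probe sets were called, both of Mgst1 and of opposite sign. Over all probe sets 17.2% were called in B6, so the members' share was near that of the array. Without the high arrays, which leaves 1 unstimulated B6 array, the Mgst1 differences were 0.14 in 1415897_a_at and -0.19 in 1415898_at. In C3Bir, BC-R3 and CB-R1, limma called 0 members and 0% of all probe sets. At an unadjusted p under 0.05 were 0, 2 and 0 members, and 3404, 4024 and 1436 probe sets in all. Only in CB-R1 did the mean of Tnf, Il1b and Il6 lie higher on all flagellin arrays, as given above. How far flagellin acted on the cells was not tested. Gstp1 with flagellin was at 0.07 ± 0.09 in CB-R1, 0.07 ± 0.09 in C3Bir, 0.15 ± 0.09 in BC-R3 and 0.14 ± 0.09 in B6, a small positive difference in each that did not pass the test. The difference of the flagellin change between C3Bir and B6, and between CB-R1 and C3Bir, was called for 0 members and 0% of probe sets by limma, with 1 member each at an unadjusted p under 0.05, and 6254 and 2237 probe sets in all. BC-R3 minus B6 with flagellin had 0 members called where 0.0222% of probe sets were, and 2 members at an unadjusted p under 0.05.

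Other genes of glutathione metabolism were counted from lists, by the highest-mean probe set of each gene. None of 5 lists had a called gene in the allele contrast, with 0 of 23 other transferases, 0 of 17 genes of glutathione synthesis and breakdown, 0 of 17 glutathione-using peroxidases, reductases and glutaredoxins, 0 of 7 conjugate exporters and 0 of 15 transcription regulators. As given above, 1.3% of all genes were called in that contrast. By background, 26.1% of all genes were called, and the lists had between 5 and 8 called genes each. Among other transferases 3 were higher and 3 lower, with a list median of 0.06 beside 0.02 over all genes. Gsta3, an alpha-class enzyme, fell by 0.65 and Clic4, a channel protein with a transferase fold, by 0.45 on the log2 scale on the C3Bir background, while Gstk1 of the kappa class rose by 0.37 and Gstz1 of the zeta class by 0.22.

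In the synthesis list 3 genes were higher and 5 lower by background, with a median of -0.02. Gclm, the modifier subunit of the enzyme that limits glutathione synthesis, averaged 11.27 on the C3Bir background and 12.56 on the B6 background, so that it fell by 1.29 on the log2 scale (adjusted p = 4.18e-09). Slc7a11, the cystine importer, fell by 1.10 and Ggct, which breaks down gamma-glutamyl peptides, by 0.74, while Ahcy, of the methionine cycle, rose by 0.48. Of the peroxidase list 6 were higher and 1 lower, with a median of 0.14. Glo1, which clears methylglyoxal with glutathione, averaged 10.76 on the C3Bir background against 9.63 on the B6 background, a log2 rise of 1.14 (adjusted p = 4.88e-14). Gpx3, the secreted glutathione peroxidase, rose by 0.96 and Gpx7 by 0.56, and Pgd, an NADPH-producing enzyme, fell by 0.60. Of the exporters 1 was higher and 4 lower, with Abcc1, the main exporter of glutathione conjugates, lower by a log2 difference of -1.09. Of the regulators 2 were higher and 3 lower, with Maff at -0.59, Ahrr at 0.48, Mafg at -0.39 and Keap1, the NRF2 repressor, at -0.30.

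With flagellin, C3Bir against B6 had 6.3% of all genes called. Gclm fell by 1.18 and Abcc1 by 1.05 on the log2 scale, and Glo1 rose by 1.03. The lists had 1 of 23 other transferases called (Gsta3, -0.95), 5 of 17 synthesis genes, 4 of 17 in the peroxidase list, 1 of 7 exporters and 1 of 15 regulators (Mafk, 0.57). In B6 with against without flagellin, 20.2% of genes were called, with 7 of 23 other transferases (2 higher, 5 lower), 2 of 17 synthesis genes, 5 of 17 in the peroxidase list, 1 of 7 exporters and 5 of 15 regulators. Of these Hpgds, a prostaglandin D synthase of the sigma class, was higher by 0.96 on the flagellin arrays. Ptges, a prostaglandin E synthase of the Mgst1 family, was lower by 1.51. B6 unstimulated arrays 2 and 3 in this contrast are high arrays, and without them 1 unstimulated B6 array is left. Their cytokine means were 12.48 and 12.58, beside 7.65 to 8.43 on the B6 flagellin arrays. Whether the Hpgds and Ptges differences rest on the high arrays cannot be told.

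Over the 24 arrays, the genes most alike to Gstp1 in signal were Olfml3 (r = 0.83), Gid8 (0.78) and Aqp1 (0.77). Mpeg1 was the most alike to the Mgst1 probe set 1415897_a_at (r = 0.91), and Nf2 to the Gsto1 probe set 1416531_at (r = 0.93). For the others the highest values were Kctd17 for Gstm1 (0.87), Tns2 for Gsta4 (0.85), Prl6a1 for Gstt1 (0.77) and Aldh7a1 for Mgst3 (0.84). These are maxima over all other genes on arrays that share strains and array quality, and they are given as a description.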

How the data were processed

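RNA from bone marrow-derived macrophages was measured on 24 Affymetrix arrays, 3 for each of 8 strain-by-condition groups. The authors deposited log2 values per probe set for 45037 probe sets. The steps by which they computed and normalized them are not given in the sources used here. Without the 4 empty ones, 45033 entered the analysis as deposited, since array medians agreed within 0.1. Symbols came from the platform's annotation, which gave 1 symbol for 34944 of them, several for 931 and none for 9158.

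The test was limma 3.58.1 (R 4.3.3), with a model of 8 group means over all arrays with eBayes (16 residual and 4.02 prior degrees of freedom), two-sided, with Benjamini-Hochberg adjustment over all probe sets in each of 15 contrasts, called at an adjusted p under 0.05. A further 5 contrasts over both conditions were added after the values had been seen. All 8 members and their 14 probe sets are named. Other genes are named by rule, as up to 4 called genes with the largest change per list and comparison, and the most alike of up to 3 genes per member. The members and lists were chosen with earlier results of these data known. The test was checked on simulated data. There were 11 alternative settings, besides leaving out each array in turn, and 1 was added later. Same-numbered arrays deviated together in all 3 pairs of C3Bir (r = 0.29 to 0.45) and of CB-R1 (0.22 to 0.50). In BC-R3 r was -0.44 to 0.24 and in B6 -0.29 to 0.12. Over all 84 same-numbered pairs, most of them between strains, r was -0.48 to 0.55 (median 0.07). Unstimulated B6 and C3Bir had 0.30 to 0.52, so deviating together was not particular to arrays of 1 strain. The pairing in C3Bir and CB-R1 rests on the within-strain correlations, not on the labels. Promoters came from RefSeq (GRCm38.p6), and Gstp1 and Gstp2 were compared by global alignment.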

Additional observations from a re-analysis of the deposited data

Results flagged for a closer look

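The response to flagellin was called as different between BC-R3 and B6 in 3 member probe sets, by a test of that difference in limma. Of all probe sets 8.05% were called there. The log2 change in BC-R3 minus that in B6 was -0.54 for Gsto1 1456036_x_at (adjusted p = 0.0299), -0.60 for Mgst1 1415897_a_at (0.0135) and 0.38 for Mgst1 1415898_at (0.0409). With the compared arrays alone all 3 calls were lost (lowest adjusted p = 0.126). The Gsto1 call was also lost with quantile normalization (0.0567) and without some single arrays of either strain (0.0642 to 0.0923). The Mgst1 1415898_at call was also lost with quantile normalization (0.113) and median centring (0.0571). Leaving out any single BC-R3 array ended it too (0.0507 to 0.0954). The allele difference of Gstp1 was larger on the C3Bir background than on the B6 background, by a log2 difference of -0.28 (adjusted p = 0.0477). Without the high arrays the calls were lost, with 1 unstimulated array left in B6 and 1 in C3Bir. The differences were then -0.62 for Gsto1 1456036_x_at, -0.47 for Mgst1 1415897_a_at, 0.22 for Mgst1 1415898_at and -0.32 for Gstp1. The Gsto1 and Gstp1 differences were thus no smaller there. Groups of 3 arrays are too small for the test of outlying samples.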

How the results depend on the processing

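The counts are member probe sets called, and each alternative changed 1 choice. Direction did not turn in any called probe set. With quantile normalization the BC-R3 minus B6 flagellin difference had 1 call in place of 3. A filter on low values left 1 in place of 2 for flagellin in B6. The highest-mean probe set per gene gave 1 for flagellin in B6, C3Bir minus B6 with flagellin, the BC-R3 minus B6 flagellin difference and BC-R3 minus B6 over both conditions, and averaging the probe sets of each gene gave 0, 1, 0 and 1 for these and 1 for CB-R1 minus B6. With the compared arrays alone, counts were 0 for flagellin in B6, C3Bir minus B6 with flagellin, BC-R3 minus B6 unstimulated and over both conditions, CB-R1 minus C3Bir in each condition and the BC-R3 minus B6 flagellin difference, and 2 for CB-R1 minus C3Bir over both conditions. Fewer arrays enter that fit, and also the fit without the high arrays, which leaves 1 unstimulated array in B6 and 1 in C3Bir. Without the high arrays, counts were 0 for flagellin in B6, C3Bir minus B6 unstimulated, BC-R3 minus B6 unstimulated and over both conditions, CB-R1 minus C3Bir in each condition and the BC-R3 minus B6 flagellin difference, and 2 by background. Without the 3 unstimulated arrays 1 of B6, C3Bir and BC-R3, counts were 2 for flagellin in BC-R3, 2 for C3Bir minus B6 unstimulated, 6 for BC-R3 minus B6 unstimulated, 2 by allele, 1 for the C3Bir minus B6 flagellin difference, 2 for CB-R1 minus C3Bir and 4 for BC-R3 minus B6 over both conditions, and 2 for the allele difference between backgrounds. That last contrast had 0 calls with quantile normalization, median centring, eBayes with trend and robust options, a random replicate block and without the high arrays. Without the 3 unstimulated arrays 1, the unstimulated groups of B6 and of C3Bir hold the high arrays alone. With array number as a fixed replicate block the allele count was 1 and the background count 4, as without the replicate block. No count moved by over 1.5 times there. With same-numbered arrays of C3Bir and of CB-R1 as pairs, a replicate block added after seeing the data, limma again called 0 members and 0 probe sets for flagellin in either strain, with 0 members and 3566 and 1452 probe sets at an unadjusted p under 0.05. Strain and array number as a random replicate block (correlation 0.084) changed BC-R3 minus B6 over both conditions to 0. Leaving out each array in turn gave 0 to 3 calls for flagellin in B6, 0 to 2 in BC-R3, 1 to 3 for C3Bir minus B6 unstimulated and 1 to 2 with flagellin, 2 to 4 for BC-R3 minus B6 unstimulated and 0 to 3 over both conditions, 0 to 1 for CB-R1 minus C3Bir in each condition, 1 to 3 by allele, 3 to 5 by background, 2 to 3 for CB-R1 minus B6 and for C3Bir minus BC-R3, 0 to 1 for the C3Bir minus B6 flagellin difference, 1 to 3 for that of BC-R3 minus B6 and 0 to 2 for the allele difference between backgrounds. The cause of these moves was not tested. The Gstp1 allele call and the Gsto1 1456036_x_at and Gstm5 background calls were kept in every alternative fit of single probe sets. Dim probe sets such as Mgst1 1415898_at limit what low signals show.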
